A study of Mus musculus with 42 samples.

Results

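The genes described here are the nuclear receptor gene Ppara and 7 genes that this receptor is known to switch on in liver when fat is burned: Cpt1a, Hadha, Acadm, Ehhadh, Acot1, Plin2 and Pdk4. They were chosen by symbol. The array carries 11 probes for these 8 genes, out of 20018 genes with a named probe, and all 8 genes were measurable in liver, lung and forestomach. Values are log2 ratios of tissue RNA over a reference RNA pooled from 11 mouse cell lines, so a value belongs to 1 probe and can be compared between samples but not between genes. The animals were 15 male Muta™Mouse, a transgenic strain that carries a lacZ reporter for mutation assays, about 11 weeks old, with food and water always available. By gavage they received BkF, which is benzo(k)fluoranthene, a hydrocarbon of fused aromatic rings from incomplete combustion, in olive oil on 28 days at 0 (D0, olive oil alone), 25 (D1), 50 (D2) or 100 (D3) mg/kg-bw/day, and tissues were taken 72 h after the last dose. Liver came from 4, 2, 3 and 4 mice of D0, D1, D2 and D3, lung from 4, 3, 4 and 4, and forestomach from 4, 3, 4 and 3. All animals, D0 included, therefore received daily olive oil, and 5 mice of this experiment, over vehicle and dosed groups together, were lost to gavage accidents.

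PPAR alpha is a receptor that fatty acids bind. With its partner RXR it sits on a DNA element made of a repeated short motif and raises the genes that take fatty acids into mitochondria and peroxisomes and oxidise them, most of all in the fasting liver. Cpt1a makes the acylcarnitines that enter mitochondria, Acadm and Hadha carry out steps of mitochondrial beta-oxidation, Ehhadh works in the peroxisomal pathway, Acot1 cleaves acyl-CoA in the cytosol, Plin2 coats lipid droplets, and Pdk4 restrains pyruvate dehydrogenase so that fat is used in place of glucose. BkF acts on another receptor, the aryl hydrocarbon receptor (AhR), which binds DNA elements with the core GCGTG. The comparisons ask whether the receptor gene and its targets differed between vehicle and BkF mice, and how their levels order among the 3 tissues.

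The promoters of the 8 genes were read from RefSeq (GRCm38.p6; 250 bases before to 50 bases after each gene's start), and all 8 were matched. The single copy of that motif, AGGTCA, searched on both strands, is present in 3 of the 8 (Cpt1a, Acadm and Plin2) and in 16.3% of 32851 promoters of that length. A direct repeat of AGGNCA with 1 base between, the arrangement that PPAR and RXR prefer, is present in 0 of the 8 and in 0.381% of all promoters. The AhR core GCGTG, also on both strands, is present in 5 of the 8 (Ppara 3 times, and Ehhadh, Pdk4, Acadm and Plin2 once each) and in 32.4% of all promoters. No hits of the different motifs overlap in these genes. Elements outside this window were not searched. Promoters of 3 targets are given because their genes return in the results: Acot1 holds neither motif, Ehhadh holds 1 AhR core, and Plin2 holds 1 AGGTCA and 1 AhR core. Capitals mark the matches, which read TGACCT for AGGTCA and CACGC for the AhR core on the strand shown.
Acot1, chr12:84009252-84009551, plus strand: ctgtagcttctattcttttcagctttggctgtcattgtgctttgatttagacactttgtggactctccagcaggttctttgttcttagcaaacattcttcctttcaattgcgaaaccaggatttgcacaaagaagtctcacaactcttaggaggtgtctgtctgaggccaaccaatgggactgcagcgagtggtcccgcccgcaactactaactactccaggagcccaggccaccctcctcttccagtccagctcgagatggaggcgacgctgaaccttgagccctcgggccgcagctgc
Ehhadh, chr16:21787785-21788084, minus strand: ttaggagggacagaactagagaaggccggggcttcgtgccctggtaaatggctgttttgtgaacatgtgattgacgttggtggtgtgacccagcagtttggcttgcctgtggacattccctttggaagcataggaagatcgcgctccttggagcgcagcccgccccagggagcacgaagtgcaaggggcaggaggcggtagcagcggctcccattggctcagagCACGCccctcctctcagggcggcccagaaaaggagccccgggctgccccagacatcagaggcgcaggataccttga
Plin2, chr4:86670010-86670309, minus strand: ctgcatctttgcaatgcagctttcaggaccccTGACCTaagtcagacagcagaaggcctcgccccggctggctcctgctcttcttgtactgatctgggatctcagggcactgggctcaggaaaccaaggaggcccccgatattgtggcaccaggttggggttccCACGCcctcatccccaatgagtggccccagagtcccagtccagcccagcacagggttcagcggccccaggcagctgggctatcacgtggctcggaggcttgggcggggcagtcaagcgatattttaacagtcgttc

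The liver arrays matched their label: the 10 liver markers averaged 7.84 to 8.45 on them, with all 10 well above background on each. Between 28.1% and 60.0% of probes were well above background per array. The high-dose liver of mouse 17 stands apart, with 9 of 10 skeletal muscle markers well above background and a mean of 3.60, against -0.75 to -0.43 on the other 12 livers. The same liver had white fat markers at 2.33 and the high-dose liver of mouse 20 at 1.32, against 0.11 or less on the other 11. Exposure was visible in Cyp1a1, the monooxygenase gene that AhR induces, which was not well above background in any D0 liver and was at least 29.8-fold higher at D3 and at least 41.4-fold higher at D2. These bounds rest on Cy5 signals alone, normalised by loess and Aquantile, and are open to dye bias. At D1 it measured 4.61 in mouse 8 and was not well above background in mouse 9.

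In liver, none of the 8 genes was called at any dose. A call required an adjusted p of at most 0.05 in limma, over all 30443 probes tested, and a change of at least 1.5-fold from D0. Over all probes the called share was 0% at D1, 0.0427% at D2 and 0.0526% at D3, which amounts to 0, 13 and 16 probes, so a count of 0 among 8 genes is near the background. Of the 8 genes, 1, 1 and 3 had an unadjusted p under 0.05 at D1, D2 and D3, where 1.53%, 10.7% and 7.80% of all probes did. The median change of the 8 genes at D3 was -0.18 (6 of 8 below 0), beside -0.01 over all probes. The markers of the liver itself were also lower at D3, with 10 of 10 below D0 and a median of -0.37. The part of tissue makeup in the values of the 8 genes was not tested beyond leaving out the livers of mice 17 and 20, and in whole tissue fewer cells of a type and less RNA per cell cannot be told apart.

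**Figure D1:**
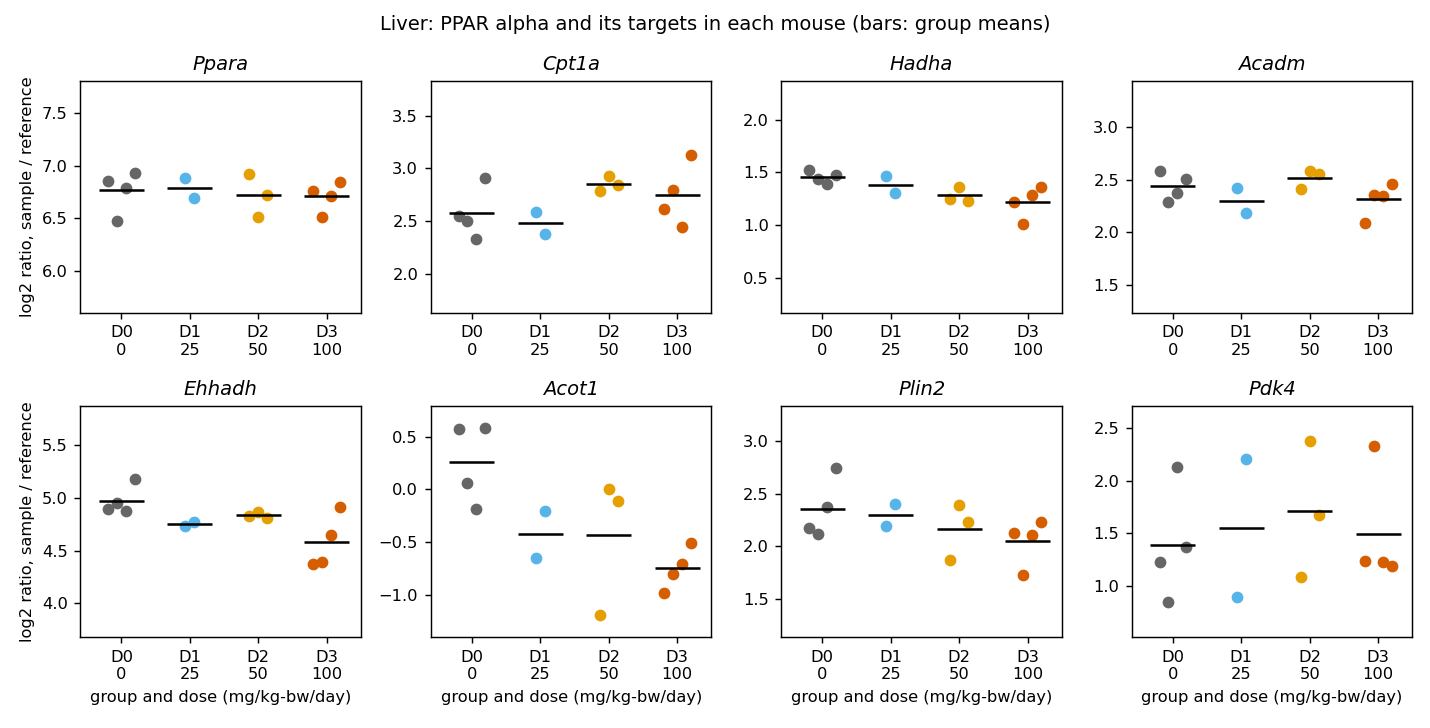
Log2 ratio of each gene in each liver (y axis, with the same span of log2 units in every panel) against dose group (x axis, mg/kg-bw/day); each point is 1 mouse and each bar a group mean. Acot1 shows the largest difference, with the D3 livers between -0.98 and -0.51 and the D0 livers between -0.19 and 0.59.

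Ppara itself, the receptor, was level. By the brightest of its 3 probes it measured 6.86, 6.48, 6.79 and 6.93 in the D0 livers, 6.89 and 6.69 at D1, 6.93, 6.52 and 6.73 at D2, and 6.76, 6.52, 6.72 and 6.85 at D3. All BkF livers lay within the range of the D0 livers. The change at D3 was -0.06 with a 95% confidence interval of -0.33 to 0.21, which lies inside 1.5-fold. The other probes of Ppara gave 0.26 and 0.06 at D3, with intervals of -0.14 to 0.66 and -0.31 to 0.42.

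Cpt1a, which controls entry of fatty acids into mitochondria, had D0 values of 2.54, 2.50, 2.33 and 2.91 and D3 values of 2.61, 2.80, 2.44 and 3.13. At D2 it was 2.78, 2.93 and 2.85, and at D1 2.59 and 2.38. The groups overlapped at every dose. The change at D3 was 0.17 (interval -0.15 to 0.50), and the second probe gave -0.08 (interval -0.41 to 0.24), so the probes did not share a direction.

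Hadha, the alpha subunit of the mitochondrial trifunctional protein, was close together within each group. It measured 1.53, 1.44, 1.39 and 1.48 in the D0 livers and 1.22, 1.01, 1.28 and 1.36 at D3. All 4 D3 livers and all 3 D2 livers (1.25, 1.36 and 1.23) lay below every D0 liver, while D1 (1.47 and 1.30) overlapped. The change at D3 was small, -0.24 (SE 0.0943, adjusted p = 0.579), a factor of 1.18. Acadm, the medium-chain acyl-CoA dehydrogenase, ranged from 2.29 to 2.58 at D0 and from 2.09 to 2.46 at D3, with overlap at every dose and a change of -0.12 (interval -0.36 to 0.11) at D3.

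Ehhadh, the bifunctional enzyme of peroxisomes, measured 4.90, 4.95, 4.88 and 5.18 at D0 and 4.38, 4.40, 4.65 and 4.92 at D3. One D3 liver reached into the D0 range and the other 3 lay below it. Both D1 livers (4.73 and 4.78) and all 3 D2 livers (4.83, 4.87 and 4.81) lay below every D0 liver as well. The change at D3 was -0.39 (SE 0.121, adjusted p = 0.428), a factor of 1.31.

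Acot1, the cytosolic acyl-CoA thioesterase, had the largest difference of the 8. It measured 0.57, 0.06, -0.19 and 0.59 in the D0 livers, -0.65 and -0.20 at D1, -1.20, 0.00 and -0.11 at D2, and -0.98, -0.81, -0.71 and -0.51 at D3. All D1 and D3 livers lay below every D0 liver, and at D2 1 of 3 did. The change was -0.69 at D1, -0.69 at D2 (-0.31 without mouse 11) and -1.01 at D3 (SE 0.254, interval -1.56 to -0.46, a factor of 2.01), with adjusted p = 0.277 at D3 over all probes. Acot1 has close relatives in the mouse genome, and probe sequences were not available here to test whether they share signal. The probes of its relatives Acot2, Acot3 and Acot4 gave 0.069, -0.00087 and 0.10 at D3.

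Livers of a dose group that all lay below every D0 liver were thus seen in 2 of the 8 genes at D1 (Ehhadh and Acot1), 2 at D2 (Ehhadh and Hadha) and 2 at D3 (Acot1 and Hadha). The same held for 5.25%, 4.79% and 3.02% of all probes tested.

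Plin2, the coat protein of lipid droplets, ranged from 2.12 to 2.74 at D0, from 2.20 to 2.41 at D1, from 1.87 to 2.39 at D2 and from 1.73 to 2.24 at D3. The change at D3 was -0.30 (interval -0.65 to 0.05) and the groups overlapped. Pdk4 was the most variable of the 8 within groups. It measured 1.23, 0.85, 2.13 and 1.37 in the D0 livers, 0.89 and 2.20 at D1, 1.09, 2.37 and 1.67 at D2, and 1.23, 2.33, 1.23 and 1.19 at D3. The high value at D3 is mouse 17, the liver with muscle and fat markers. The change at D3 was 0.10 with that liver (interval -0.70 to 0.90) and -0.18 without it.

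**Figure D2:**
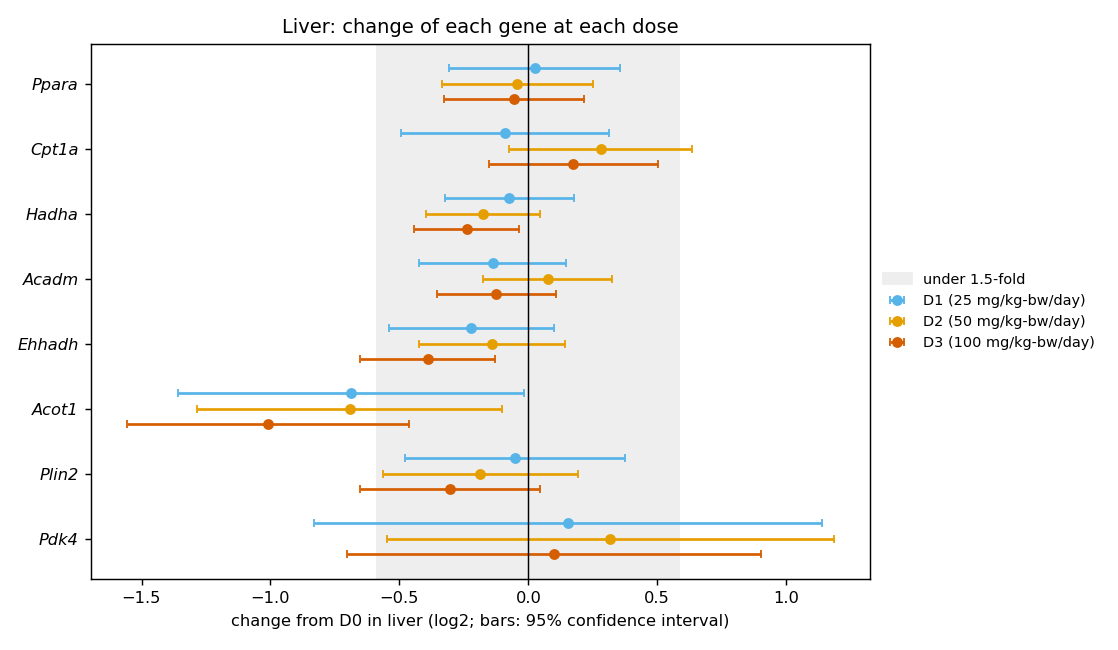
Change of each gene from D0 in liver (x axis, log2) at D1, D2 and D3 (colours); points are differences of group means, bars their 95% confidence intervals, and the grey band marks changes under 1.5-fold. The intervals of Acot1 lie below 0 at all 3 doses, from -1.56 to -0.46 at D3, while those of Ppara stay inside the band.

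The size of change that these livers could show differed by gene. At D3 the intervals of 4 of the 8 genes (Ppara, Acadm, Cpt1a and Hadha) lay wholly inside 1.5-fold in either direction, while those of Ehhadh, Acot1, Plin2 and Pdk4 reached past it. In the trend over dose, expressed per 100 mg/kg-bw/day, none of the 8 genes passed, and 0% of all probes did. Acot1 had a slope of -0.93 (SE 0.251, adjusted p = 0.316), Ehhadh of -0.36 (adjusted p = 0.397) and Hadha of -0.24 (adjusted p = 0.470). Without the high-dose livers of mice 17 and 20, a choice made after seeing the data, 0 of all 30443 probes were called at D3, so the count of 0 among the 8 genes says nothing about them, and Acot1 was at -1.10.

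The 8 genes did not move as 1 block from liver to liver. Over the 13 livers, Pearson's r between 2 of the 8 genes was positive for 21 of 28 pairs, with a median of 0.21 and a range of -0.45 to 0.75. The strongest pair was Ehhadh and Hadha (r = 0.754, permutation p = 0.00297, adjusted over 28 pairs p = 0.0710; Spearman's rho = 0.714, permutation p = 0.00727, adjusted p = 0.0679). Within dose groups r was 0.600, on the slides with 7 and 6 livers 0.779 and 0.854, and without the 2 livers farthest from the median of Ehhadh 0.503, so part of the relation rests on those 2 livers. Acot1 ran with Ehhadh (r = 0.705, permutation p = 0.00615, adjusted p = 0.0710; rho = 0.758, permutation p = 0.00391, adjusted p = 0.0679), with 0.393 within dose groups and 0.644 without the 2 livers farthest from the median of Ehhadh. By both measures 0 of the 28 pairs had an adjusted p under 0.05, and 7 had an unadjusted p under 0.05 for r. The same counts were not made for pairs of other genes, so no share over all genes stands beside them.

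Among all other genes measured in liver, the pattern of Acot1 over the 13 livers was most like those of Hsdl2 (0.964), Utp11 (0.852) and Rida (0.834), the values being Pearson's r. Hsdl2 is a peroxisomal dehydrogenase-like protein. Ppara ran closest to Eefsec (0.902), Meiob (0.871) and 9130409I23Rik (0.867), Cpt1a to Tex264 (0.904), Eif4ebp1 (0.880) and Bnip3l (0.878), and Ehhadh to Pla2g12b (0.894), Trim43b (0.881) and F12 (0.877). Pdk4 ran closest to Tmco6 (0.930), Prkg1 (0.890) and Dusp6 (0.875), Hadha to Katna1 (0.905), Car14 (0.856) and Uox (0.798), Acadm to Metap2 (0.882), Tmem53 (0.848) and Mdfic (0.815), and Plin2 to Lgals9 (0.844), Mmp1b (0.821) and Pla2g12b (0.819). These are the highest of 14275 values of r each, given as a description.

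A wider set of 96 genes of fatty acid uptake, oxidation, ketone synthesis, lipid droplets and PPAR control, the 8 genes among them, was measured alongside, with 94 tested in liver. At D3 none was called, 24 had an unadjusted p under 0.05 (7.80% of all probes did), and 28 lay above and 66 below D0, with a median change of -0.13 where the median of all probes was -0.01 and 48.8% of them lay above D0. The liver markers, with 10 of 10 below D0 and a median of -0.37, moved the same way, and the part of tissue makeup in the wider set was not tested. In the mitochondrial beta-oxidation list 3 of 15 genes lay above D0 (median -0.15), in the carnitine shuttle 2 of 7 (-0.31), in microsomal omega-oxidation 0 of 6 (-0.40), in ketone body synthesis 0 of 4 (-0.20), among secreted and other targets 0 of 8 (-0.31), and in fuel selection 6 of 6 (0.12). At D2 the wider set held 1 called gene, Cd36, and at D1 none.

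Of the classical targets outside the 8, the omega-hydroxylases Cyp4a10 and Cyp4a14 were at -0.47 and -0.38, and the hormone gene Fgf21 at -0.20, with adjusted p = 0.820, 0.937 and 0.954. The lowest changes of the wider set outside the 8 were those of Angptl4, the lipoprotein lipase inhibitor (-0.85), Vnn1, a pantetheinase (-0.66), and Crat, the carnitine acetyltransferase (-0.61). None was called, and over the alternatives and single livers left out they ran from -1.22 to -0.35, from -1.13 to -0.46 and from -1.64 to -0.46, so their order is not settled. Cyp4a14 ran from -1.23 to -0.11.

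Cd36, the fatty acid translocase, had the highest change (1.60, adjusted p = 0.132). Cidec, a lipid droplet protein, was not well above background in any D0 liver, where it read 0.35 to 0.55, and at D3 it measured 0.70, 3.36 and 2.04 in mice 16, 17 and 20 and was not well above background in mouse 19. Mice 17 and 20 are the livers with white fat markers, and their part in these values was not tested beyond fits without them. Over the alternatives, a fit without both livers among them, the change at D3 ran from 0.075 to 1.91 for Cidec. For Cd36 it ran from 1.28 to 2.25. With single livers left out the ranges were 0.59 to 1.61 for Cidec and 1.48 to 1.88 for Cd36. In the D2 liver of mouse 12, with white fat markers at -0.07, Cidec read 2.36. Cd36 passed the test at D2, where it rose by 2.47 (adjusted p = 0.0373), from -0.76 to -0.17 in the D0 livers to 1.25, 2.78 and 1.85. This call was not stable: leaving out 1 liver at a time gave adjusted p from 0.0103 to 0.132, and it ended without any of the 4 D0 livers, either D1 liver, the D2 liver of mouse 13 or the D3 liver of mouse 20. It also ended with slide as a block (0.0654), with only the 2 groups compared (0.0791) and with the scanner software's ratio (0.0590).

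**Figure D3:**
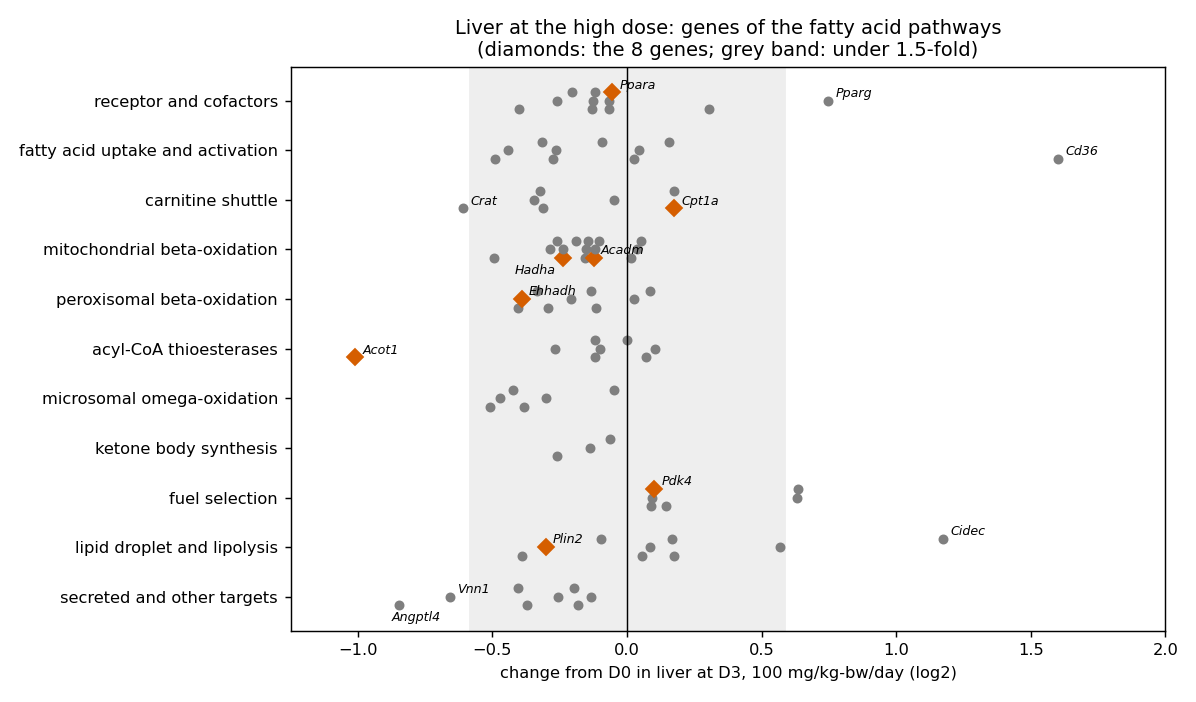
Change from D0 in liver at D3 (x axis, log2) of the genes reported from 11 fatty acid lists (y axis); diamonds are the 8 genes, circles the other genes of each list, and the grey band marks changes under 1.5-fold. Acot1 (-1.01) is the lowest point, and Cd36 (1.60) and Cidec, whose D0 level is a background reading, are the highest.

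In lung, none of the 8 genes was called either, where 0% of all probes were called at D1, 0.0153% at D2, 0.0337% at D3 and 0.0368% in the trend. An unadjusted limma p under 0.05 was reached by 0, 1 and 2 of the 8 genes at D1, D2 and D3, and by 1.78%, 4.25% and 7.99% of all probes. Acot1 measured 2.05, 1.33, 1.95 and 2.13 at D0, 1.53, 0.86, 1.07 and 1.47 at D2, and 1.67, 1.34, 1.24 and 1.44 at D3. Its change was -0.63 at D2 (adjusted p = 0.872) and -0.44 at D3 (adjusted p = 0.580), and the groups overlapped through the D0 lung at 1.33. Hadha was at -0.25 at D3 (adjusted p = 0.567), with -0.45 to -0.27 against -0.24 to -0.01 at D0, and Plin2 at -0.41, with 0.08 to 0.55 against 0.60 to 0.77. These 2 of the 8 genes had all D3 lungs below every D0 lung, as 2.34% of all probes did, and Plin2 did at D1 too, as 2.35% of all probes did. Heart muscle markers ran from 0.36 to 3.51 in the D0 lungs, from 2.63 to 4.31 at D1, from 1.20 to 4.19 at D2 and from 2.30 to 4.38 at D3, and the D1 lung of mouse 7 had the highest glandular stomach (4.22) and white fat (3.02) marker means of the lungs. The part of these tissues in the lung values was not tested.

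One lung library moved with Pdk4 and Plin2. The D2 lung of mouse 12 had skeletal muscle markers at 4.61, with 10 of 10 well above background, against -0.37 or less on the other 14 lungs, and the highest macrophage (3.92) and brown fat (3.73) marker means of all lungs. Its forestomach markers averaged 2.42, with 8 of 9 well above background, against -0.20 or less on the other 14. It had Pdk4 at 2.85 and Plin2 at 1.67. Pdk4 in the other 14 lungs ran from -0.13 to 1.14 and Plin2 from 0.08 to 0.77. The part of other tissues in these 2 values was not tested.

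The difference between the effect of BkF at D3 in liver and in lung was tested directly. None of the 8 genes passed, with 0.0154% of all probes called. For Acot1 the difference was -0.57 with an interval of -1.89 to 0.76, which spans 0. In the wider set Cd36 passed, with a D3 effect 2.40 higher in liver than in lung (adjusted p = 0.0169), a call that ended when any of 7 of the 16 arrays was left out (D0 livers of mice 1, 2 and 4, D0 lungs of mice 2 and 3, the D3 liver of mouse 20 and the D3 lung of mouse 16), with adjusted p from 0.00149 to 0.0555 over the 16. Against forestomach none of the 8 genes passed, and 0% of all probes did.

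In forestomach none of the 8 genes was called at D1, D2 or D3 or in the trend, and 0% of all probes were called in each. An unadjusted limma p under 0.05 was reached by 4, 2 and 0 of the 8 genes at D1, D2 and D3, and by 12.1%, 7.60% and 2.21% of all probes. The forestomach arrays fell into 2 sets by the markers of glandular stomach, the part of the stomach next to the forestomach: 9 arrays had a mean of 5.10 to 6.24 and 5 arrays 0.55 to 1.68. All 3 D1 forestomachs were in the high set, with 2 of 4 D0, 3 of 4 D2 and 1 of 3 D3 arrays. Acot1 was 3.99 to 5.10 in the low set and 0.55 to 3.94 in the high set, and Plin2 0.41 to 1.18 and -1.52 to 0.11. Ehhadh ran the other way, at 0.82 to 1.54 in the low set and 1.15 to 3.38 in the high set. White fat markers also differed between arrays, at 1.30, 0.47, 0.17 and 2.24 in D0 mice 1 to 4, 0.20, -0.03 and 0.18 at D1, -0.11 to 0.14 at D2, and 3.63, 0.04 and -0.01 in D3 mice 16, 17 and 20. The part of the stomach lining in the values of the 8 genes was not tested beyond the fits that follow, and that of fat was not tested.

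At D1 all 3 forestomachs lay below every D0 array for 4 of the 8 genes (Ppara, Pdk4, Acot1 and Plin2), as 9.21% of all probes did, and above it for 1 (Cpt1a), as 5.63% did. Acot1 was at -2.05 from D0 (adjusted p = 0.333), Pdk4 at -1.43 (adjusted p = 0.288), Plin2 at -1.35 (adjusted p = 0.326) and Ppara at -1.07 (adjusted p = 0.393). The other probes of Ppara gave -1.79 (adjusted p = 0.268) and -1.80 (adjusted p = 0.313), and over the alternatives and single arrays left out the value of -1.07 ran from -1.55 to -0.54. With the glandular stomach score as a covariate these were -1.15, -1.17, -0.69 and -0.89, and within the 9 high-score arrays, a split chosen after seeing the data, -1.55, -1.60, -0.93 and -1.45. In both fits none of the 8 genes was called, nor was any of all 25292 probes with the covariate, while 31 were, all lower, within the high-score arrays. In a fit of the D0 and D1 arrays alone, Pdk4 was called and 336 probes were.

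**Figure D4:**
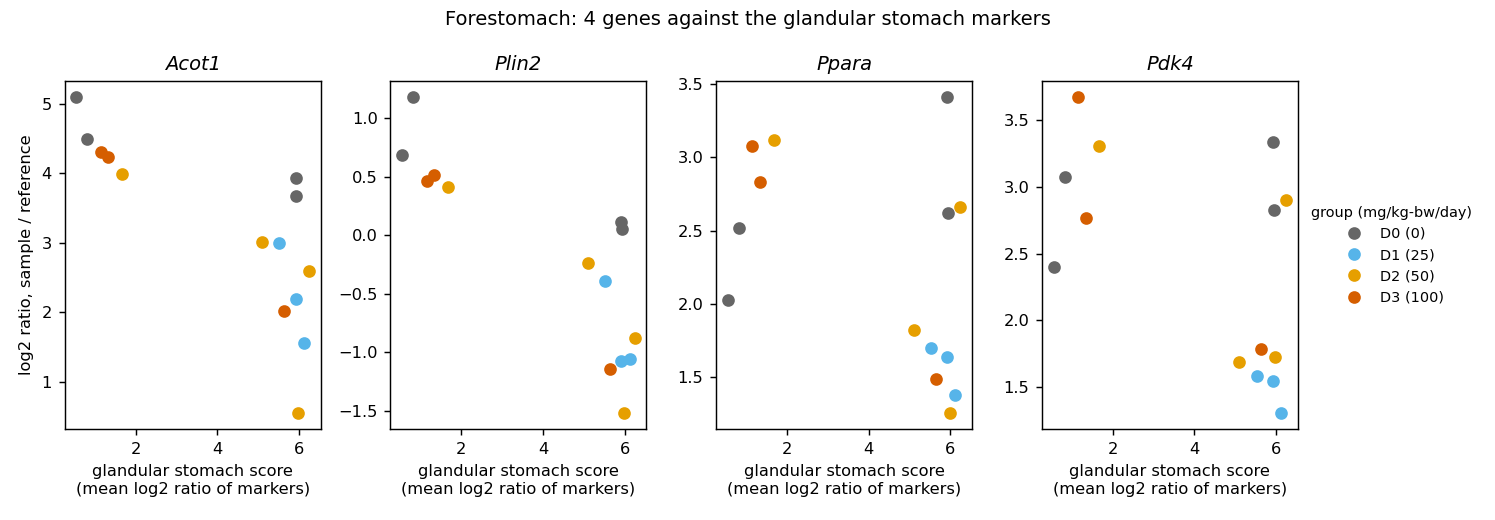
Log2 ratio of 4 genes in each forestomach (y axis) against the mean log2 ratio of the glandular stomach markers (x axis); points are mice, coloured by dose group. The 5 arrays with a score of 1.68 or less hold the highest Acot1 and Plin2 values, and all D1 arrays have scores above 5.

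Where the 8 genes are high or low among tissues was read from the 4 vehicle mice, in which all 3 tissues came from the same animals. Liver arrays were run on slides of their own and with another version of the scanner software than lung and forestomach, so liver against another tissue and that run cannot be told apart. Of all probes, 40.8% were called between vehicle liver and vehicle lung and 37.5% between vehicle liver and vehicle forestomach. Of the 8 genes, 7 were called in each comparison. The vehicle forestomachs were mixed: in mice 2 and 3 glandular stomach markers averaged 5.92 and 5.94 and liver markers 2.71 and 2.40, against 0.55 and 0.82 and 0.27 and 0.15 in mice 1 and 4, and white fat markers were highest in mouse 4 (2.24). Their part in the forestomach levels was not tested.

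Ppara was highest in liver, at 5.54 ± 0.317 (SD, n = 4) by the probe used for all tissues, then forestomach at 2.65 ± 0.573 and lung at 1.05 ± 0.186, and the 3 ranges did not overlap. Liver exceeded lung by 4.49 (22.5-fold, adjusted p = 4.86e-15) and forestomach by 2.89 (7.43-fold). Its other probes gave 4.43 and 4.34 over lung and 2.04 and 2.19 over forestomach. Ehhadh was also highest in liver, at 4.98 ± 0.138, while forestomach at 1.74 ± 0.716 and lung at 1.08 ± 0.273 overlapped, with liver 14.9-fold over lung and 9.39-fold over forestomach.

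Cpt1a, Acadm and Plin2 were higher in liver than in both other tissues, which overlapped with each other. Liver exceeded lung by 1.51 for Cpt1a, 1.90 for Acadm and 1.64 for Plin2, and forestomach by 1.63, 2.05 and 1.84. Hadha was at 1.46 ± 0.0578 in liver, 1.03 ± 0.393 in forestomach and -0.13 ± 0.108 in lung. It was 3.00-fold higher in liver than in lung, while liver and forestomach overlapped and their difference of 0.42 was under 1.5-fold (adjusted p = 0.0132).

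Acot1 and Pdk4 were not highest in liver. Acot1 was at 4.30 ± 0.632 in forestomach, 1.87 ± 0.366 in lung and 0.26 ± 0.385 in liver, with ranges apart. Liver was 3.05-fold below lung (adjusted p = 0.00336) and 16.4-fold below forestomach (adjusted p = 3.38e-09). Pdk4 was at 2.91 ± 0.399 in forestomach, 1.39 ± 0.534 in liver and 0.40 ± 0.127 in lung, also with ranges apart. Liver was below forestomach by 1.52 on the log2 scale (adjusted p = 0.00472) and above lung by 0.99, which was not called (adjusted p = 0.0584). Lung and forestomach were not tested against each other.

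**Figure D5:**
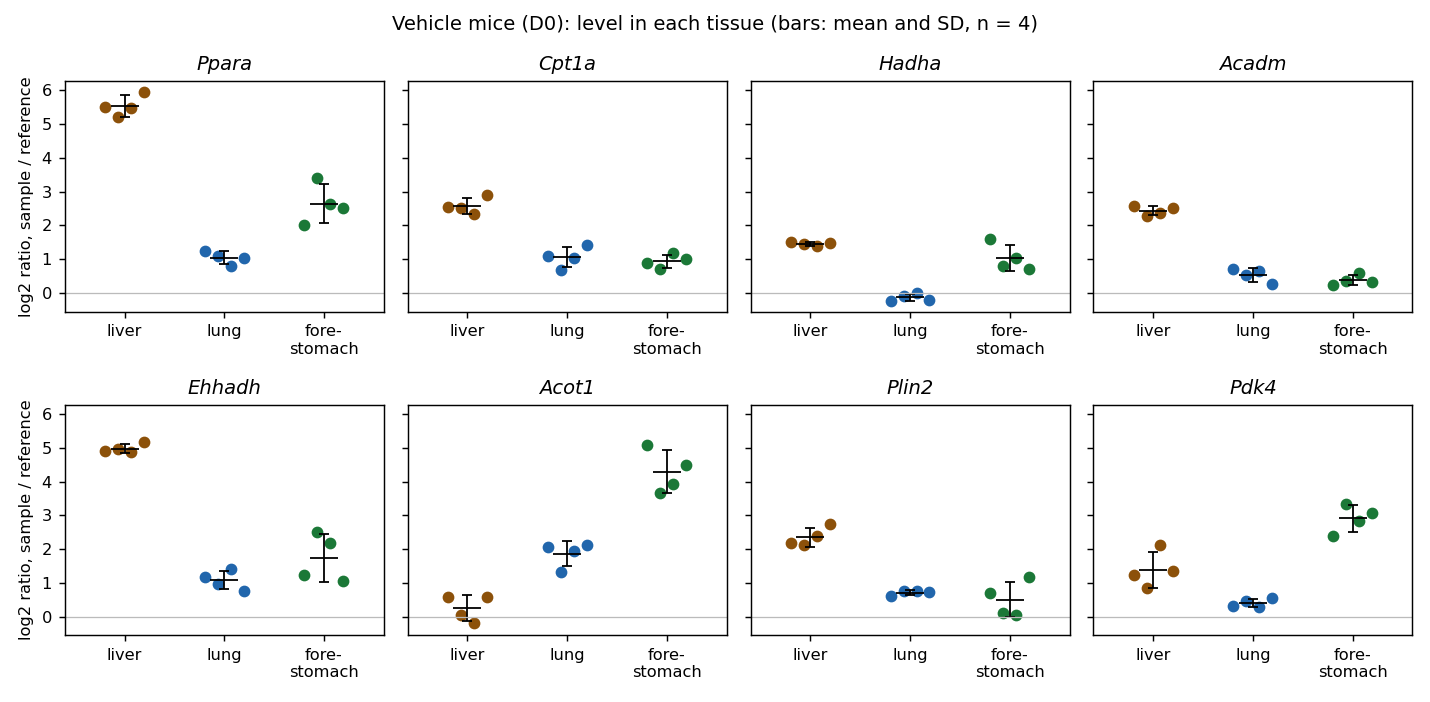
Log2 ratio of each gene in liver, lung and forestomach of the 4 vehicle mice (points), with the mean and SD (bars), by 1 probe per gene for all tissues. Ppara and Ehhadh stand highest in liver, and Acot1 stands lowest in liver (0.26) and highest in forestomach (4.30).

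In the wider set, 67 of 96 genes were called higher and 11 lower in vehicle liver than in lung, where 6463 of all 37089 probes were called higher and 8669 lower. Against forestomach 61 of 95 were called higher and 13 lower, beside 5608 and 6801 of 33093 probes. Over lung, the smallest p-values belonged to Slc27a5 (10.70 higher in liver), the acetyl-CoA thioesterase Acot12, Slc27a2 (9.47), Cyp4a32, Crot (4.20), Acaa2 (3.39), Fads2 (3.27), Apoa2 (4.90), Bdh1 (5.56) and Cyp4a31 (6.40). Slc27a5 and Slc27a2 are acyl-CoA synthetases of liver, and Crot is the carnitine octanoyltransferase of peroxisomes. Over forestomach they belonged to Slc27a5 (10.24), Acot12, Slc27a2 (9.97), Cyp4a32, Fads2 (3.36), Apoa2 (5.05), the lipid droplet gene Plin5 (5.95), Cyp4a10 (5.81), Cyp4a31 (5.93) and Scp2 (3.38). No lung or forestomach of a vehicle mouse had Acot12 or Cyp4a32 well above background, and Acot12 was at least 57.6-fold higher in liver than in lung and at least 51.5-fold higher than in forestomach. Slc27a5 was well above background in 2 of 4 lungs and Fads2 in 3 of 4. In forestomach Slc27a5, Slc27a2 and Plin5 were in 2 of 4, Cyp4a31 in 3 of 4 and Fads2 in 1 of 4. The values of these genes therefore include background readings.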

How the data were processed

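RNA of each tissue (Cy5) was hybridised with a common reference RNA (Cy3) to 2-colour Agilent arrays, 42 in all, without dye swaps. The authors deposited scanner files with median intensity values, a log10 ratio from the scanner software, and a table of processed log2 values. Lung and forestomach were read with software version 10.7.3.1 and liver with 11.0.1.1. Here log2 ratios of the median intensities were loess-normalised within each array, without background subtraction, and tested with limma 3.58.1 (R 4.3.3) in 1 fit per tissue. Probes entered a test only if their Cy5 signal passed the scanner's background flag on 2 or more liver arrays, or 3 or more lung or forestomach arrays. A call needed a Benjamini-Hochberg adjusted p of at most 0.05 over all probes and a fold of at least 1.5, or the adjusted p alone for the dose trend. Tissues were compared in 1 fit of all 42 arrays. The brightest probe of a gene was used. The study's own test (MAANOVA) was not used. The deposited table matched the probe identifiers for lung and forestomach but not for the liver columns, so it was not used for liver. Mean signals were not used here, so the normexp background alternative ran on medians (offset 50). Besides the 8 genes, named genes were those called in a comparison (the 10 with the smallest p where more were), the 3 highest and 3 lowest in liver at D3, and a few classical targets, some of which are not reported here or drawn, though counts over lists include them. Other alternatives were the scanner software's ratio, no filter on dim probes, slide as a block, 2 groups alone, the mean of a gene's probes, dose rank, mouse as a block and leaving out each array. The members and lists were chosen with earlier results of these data known. Samples are separate mice, and their number limits the precision.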

Additional observations from a re-analysis of the deposited data

Results flagged for a closer look

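Pdk4 in the high-dose liver of mouse 17 was 2.33, far from the other 3 D3 livers, which lay between 1.19 and 1.23. It was the 1 sample that stood out in this way among 56 sets of 4 or more samples tested for the 8 genes and tissues. Chance gives about 1 in every 20 sets, so 1 among 56 is not above that rate. That liver also carried skeletal muscle and white fat markers, whose part in the value was not tested. The D3 effect on Cd36 differed between liver and lung by 2.40 on the log2 scale in the direct limma test of that difference (adjusted p = 0.0169). Adjusted p ran from 0.00149 to 0.0555 when single arrays were left out. The D3 change was 1.60 in liver and -0.80 in lung, and neither was called.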

How the results depend on the processing

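In every liver, lung and forestomach comparison of BkF with vehicle the count of called genes among the 8 was 0 under each alternative run and without each array in turn, except forestomach D1 with only the 2 groups compared, where it was 1 (Pdk4). The vehicle tissue counts of 7 ran from 7 to 8 without single arrays. With the mouse as a replicate block (the same mice gave all tissues) the counts were 7, 7, 0 and 0, as without it. The block changed no call of the 8 genes. Over all probes it moved the count for the D3 effect in liver against lung from 4 to 14. Directions of small changes turned in liver. With the mean of all probes Ppara was -0.050 at D1 and 0.087 at D3, with the scanner software's ratio Plin2 was 0.019 at D1 and Fgf21 0.14 at D3, and without the livers of mice 17 and 20 Cpt1a was -0.044 and Pdk4 -0.16 at D3. Without single livers the range at D1 was -0.074 to 0.12 for Ppara, -0.19 to 0.024 for Cpt1a, -0.50 to 0.81 for Pdk4, -0.16 to 0.011 for Hadha and -0.16 to 0.079 for Plin2. At D2 it was -0.14 to 0.060 for Ppara and -0.012 to 0.63 for Pdk4, and at D3 -0.15 to 0.0077 for Ppara, -0.18 to 0.34 for Pdk4 and -0.37 to 0.10 for Fgf21. For Acot1 at D3 it was -1.16 to -0.90. The cause of these turns was not tested. Counts over all probes moved more: 16 at D3 in liver ran from 0 to 46, 13 at D2 from 0 to 156 and 11 at D3 in lung from 3 to 34, and 0 at D1 in forestomach reached 336 with only the 2 groups compared. The trend ran from 0 to 24 in liver (0) and from 1 to 27 in lung (12), and the D3 effect in liver against lung from 1 to 14 (4). The deposited value table was not run for liver.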

Other observations

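The mid-dose (D2) liver of mouse 12 held high values of several other targets of PPAR alpha. The omega-hydroxylase gene Cyp4a14 was 4.83 there, against 1.99 or less in the other 12 livers. Fgf21 was 2.45, Cyp4a10 7.95, Vnn1 2.10 and Cidec 2.36 in the same liver, and Cidec was higher still in the D3 liver of mouse 17. Not all targets were high in the liver of mouse 12. Ehhadh and Hadha lay below every D0 liver there, and Cpt1a and Pdk4 above every D0 liver. Ppara, Acot1 and Acadm lay within the D0 range. The brown fat markers of the liver of mouse 12 averaged 0.75, against 1.64 or more in the other 12 livers, and their part in these values was not tested.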
